A study of Danio rerio with 18 samples.

Results

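The genes described here encode enzymes of pteridine pigment synthesis, the route that gives xanthophores, the yellow pigment cells of zebrafish, part of their colour. The set holds 8 gene names. Of these, gch2, pts, aox5, xdh, mocos and paics were taken by Ensembl gene ID, and atic and qdpra by symbol. The symbol QDPR stands for 3 gene IDs, and nothing in the reference table says which of them is qdpra, so all 3 are given. This made 10 of the 28298 gene IDs in the count table. The names were chosen by their measured levels, high in sorted GFP-positive cells relative to GFP-negative cells and at 48 relative to 24 hours post fertilization (hpf), so those differences are described below without a test.

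RNA of FACS-sorted zebrafish embryo cells was sequenced in 18 libraries, 12 from GFP-positive and 6 from GFP-negative cells, in a study of cardiomyocyte transcriptomes during heart development. Embryos of the genetic backgrounds gata5, tbx5 and hand2 were sampled at 72 hpf, and wild-type embryos at 24, 48 and 72 hpf. Each of these 6 conditions gave 2 GFP-positive libraries and 1 GFP-negative library. The labels name no allele for the 3 backgrounds and no reporter behind the GFP, and do not say whether replicates came from separate pools of embryos, so p-values measure only the spread between these libraries, which may be technical.

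Pteridine synthesis starts from GTP, which a GTP cyclohydrolase converts into the first pterin intermediate, and 6-pyruvoyltetrahydropterin synthase carries that intermediate on. Later branches lead to the coloured pterins of xanthophores and, in many tissues, to tetrahydrobiopterin, the cofactor of the enzymes that hydroxylate aromatic amino acids. GTP itself comes from de novo purine synthesis, and several oxidations of pterins and purines need enzymes that carry a molybdenum cofactor.

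Libraries held 5705157 to 32141901 counts. Levels are CPM, counts scaled to a common library total, after TMM scaling, a correction for differences in library composition. Of the genes that name the backgrounds, hand2 was at 0 to 2.56 CPM in its own GFP-positive libraries and at 19.2 to 47.2 CPM in the other GFP-positive libraries at 72 hpf. The gata5 transcript was at 14.0 to 17.1 CPM in its own background against 17.7 to 47.7 CPM elsewhere, and tbx5a at 5.18 to 15.5 CPM against 1.23 to 21.7 CPM, so transcript levels do not check those 2 labels. Markers of several cell types were present in the GFP-positive fraction. The summed level of 9 xanthophore marker gene IDs, none of them a member of the set, was 5599.8 to 15689.7 CPM in the 10 GFP-positive libraries at 48 and 72 hpf and 83.6 to 249 CPM in the 6 GFP-negative libraries. For 8 cardiomyocyte gene IDs the sums were 50.9 to 2663 CPM in all 12 GFP-positive libraries and 2.23 to 19.4 CPM in the GFP-negative ones, where 1 TNNT2 gene ID was at 0 throughout. In bulk RNA of this kind, fewer cells of a type and less RNA per cell cannot be told apart.

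The enzyme that starts the route had the lowest level at 24 hpf and the highest at 48 hpf in GFP-positive cells. gch2 (ENSDARG00000099101), a GTP cyclohydrolase, was at 167 and 73.8 CPM in GFP-positive libraries at 24 hpf, at 20141 and 19435 CPM at 48 hpf and at 9297 and 5129 CPM at 72 hpf. The GFP-negative libraries held 92.5 CPM at 24 hpf, 12.8 CPM at 48 hpf and 1.71 CPM at 72 hpf, the last from 13 counts. The 24 hpf fractions overlapped, and from 48 hpf on the GFP-positive level was over the GFP-negative one in every library. Over the 10 GFP-positive libraries at 48 and 72 hpf, gch2 averaged 12288 CPM (SD 5518), which was 1465 times the mean of 8.39 CPM in the 5 GFP-negative libraries of those stages. At 24 hpf that ratio was 1.30.

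pts (ENSDARG00000045269), the synthase that follows, was at 47.8 and 34.2 CPM in GFP-positive libraries at 24 hpf, at 3468 and 4649.9 CPM at 48 hpf and at 1069.98 and 730.5 CPM at 72 hpf. The GFP-negative libraries held 70.42, 2.94 and 8.68 CPM at these stages. The single GFP-negative library at 24 hpf was thus above both GFP-positive ones, and the later ones were far below.

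The molybdenum enzymes and their activator followed the same course. aox5 (ENSDARG00000071475), an aldehyde oxidase gene widely used as a xanthophore marker in zebrafish, was at 86.5 and 21.8 CPM in GFP-positive libraries at 24 hpf, at 5311 and 6396 CPM at 48 hpf and at 2682 and 1497 CPM at 72 hpf, with 61.2, 3.49 and 3.81 CPM in the GFP-negative libraries. xdh (ENSDARG00000055240), the xanthine dehydrogenase gene, was at 6.90 and 0 CPM in GFP-positive libraries at 24 hpf, at 1533 and 1690.3 CPM at 48 hpf and at 769 and 372 CPM at 72 hpf, with 4.75, 1.195 and 4.47 CPM in the GFP-negative libraries. mocos (ENSDARG00000057148), whose product inserts the sulfur that both oxidases need in their cofactor, was at 16.4 and 14.8 CPM in GFP-positive libraries at 24 hpf, at 581 and 406 CPM at 48 hpf and at 308 and 146 CPM at 72 hpf, with 10.01, 1.56 and 0 CPM in the GFP-negative libraries. In the libraries at 0, a count of 0 allows up to 3 counts, or 0.157 CPM for xdh and 0.395 CPM for mocos. In all 3 genes the lowest GFP-positive value at 48 or 72 hpf in wild type was above every GFP-negative value. The GFP-positive mean at 48 and 72 hpf, over all backgrounds, was 1038 times the GFP-negative mean for aox5, 494 times for xdh and 203 times for mocos.

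The purine enzymes differed from these in what the GFP-negative cells held. paics (ENSDARG00000033539) encodes an enzyme of the middle steps of purine synthesis, and atic (ENSDARG00000016706) the enzyme of its last steps, which end in inosine monophosphate. paics was at 50.3 and 40.8 CPM in GFP-positive libraries at 24 hpf, at 2416 and 2309.8 CPM at 48 hpf and at 890.2 and 475 CPM at 72 hpf, with 76.1, 39.0 and 47.1 CPM in the GFP-negative libraries. atic was at 55.6 and 38.5 CPM in GFP-positive libraries at 24 hpf, at 1159.9 and 1231 CPM at 48 hpf and at 283 and 136 CPM at 72 hpf, with 65.2, 15.8 and 17.1 CPM in the GFP-negative libraries. Both genes therefore kept a level of over 14 CPM in every GFP-negative library, where pts, aox5, xdh and mocos were under 10 CPM from 48 hpf on. gch2 was at 1.71 to 12.8 CPM in the GFP-negative libraries of 48 and 72 hpf, near the lowest atic value of 14.6 CPM. The ratio between the fractions at 48 and 72 hpf was 31.2 for paics and 29.9 for atic.

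Quinoid dihydropteridine reductase, the product of the QDPR genes, returns used tetrahydrobiopterin to its active form. Of the 3 gene IDs, ENSDARG00000040190 was at 10.5 and 5.19 CPM in GFP-positive libraries at 24 hpf, at 292 and 332 CPM at 48 hpf and at 55.1 and 29.8 CPM at 72 hpf. The GFP-negative libraries held 14.1, 1.47 and 29.98 CPM of it at these stages. At 72 hpf the GFP-negative library lay between the GFP-positive ones, and the ratio of the means between the fractions at 48 and 72 hpf, over all backgrounds, was 6.66. ENSDARG00000037378 did not exceed 10.3 CPM in any library, and its ratio of the same means was 4.18. ENSDARG00000086859 had 8 counts in the GFP-negative tbx5 library (0.355 CPM) and 0 in every other, too few to be tested.

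**Figure D1:**
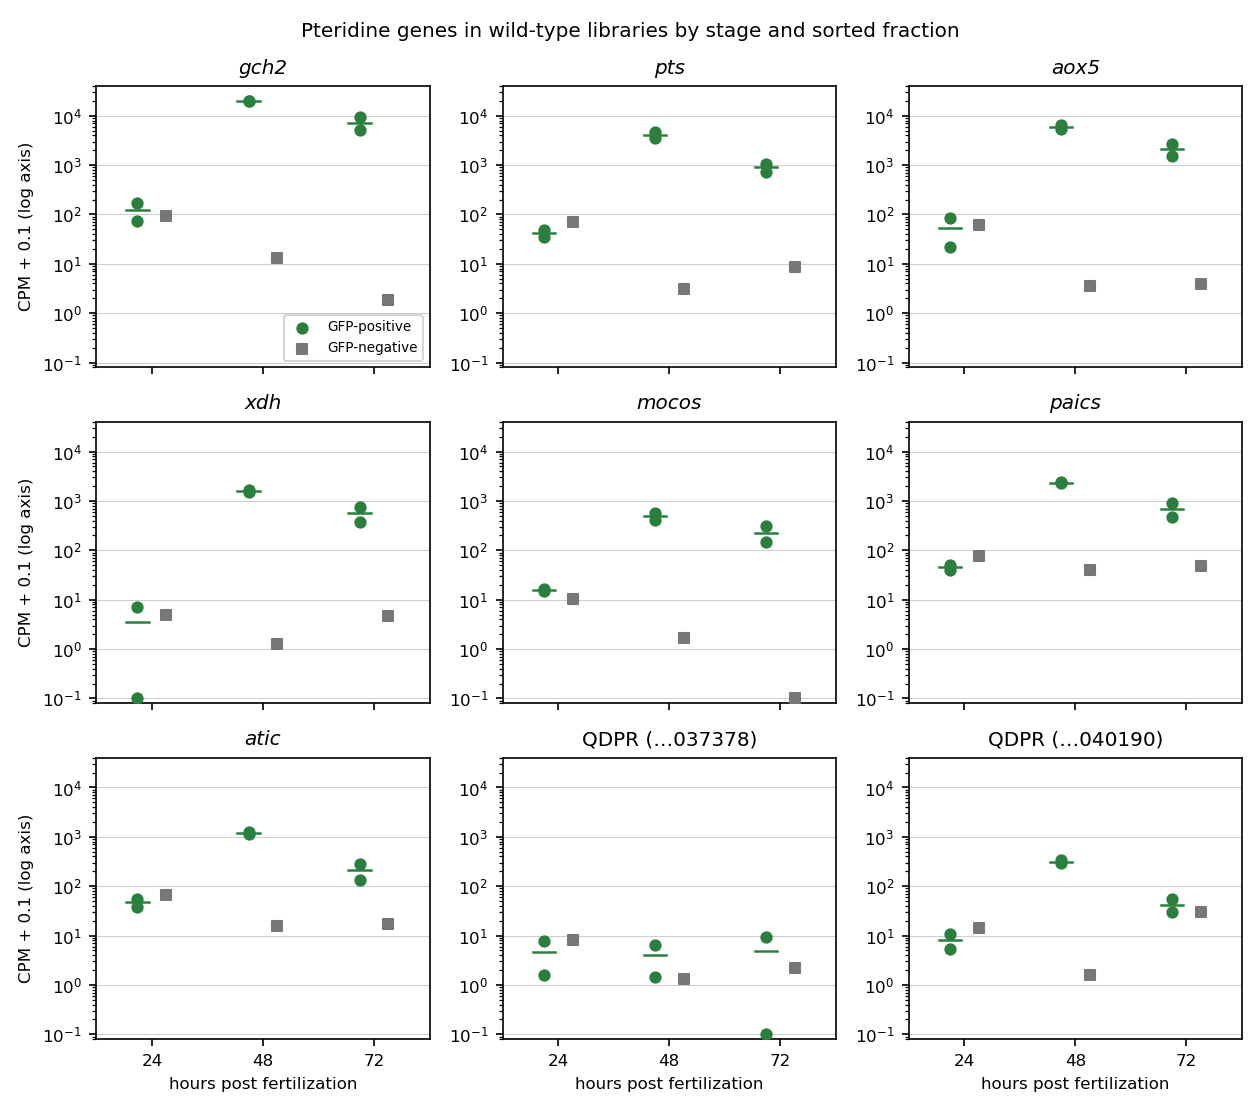
Level of 9 gene IDs of the set in wild-type libraries, as TMM-scaled CPM plus 0.1 on a log axis, against hours post fertilization. Each point is a library (GFP-positive: green circles, 2 per stage, with a bar at their mean; GFP-negative: grey squares, 1 per stage); in all panels but ENSDARG00000037378 the GFP-positive points are highest at 48 hpf, at 20141 and 19435 CPM for gch2.

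Among GFP-positive groups, 48 hpf was the highest and 24 hpf the lowest, without overlap with any other group, for gch2, pts, aox5, xdh, mocos, paics, atic and ENSDARG00000040190. Between these 2 stages alone, 32.7% of all 23767 genes tested were higher at 48 hpf without overlap. The share of all genes with that order over all groups is not given here. The mean at 48 hpf was 164 times that at 24 hpf for gch2, 98.9 times for pts, 108 times for aox5 and 467 times for xdh. The ratio was 31.6 for mocos, 51.9 for paics, 25.4 for atic and 39.7 for ENSDARG00000040190. At 24 hpf the single GFP-negative library was above both GFP-positive libraries for 5 of the 9 gene IDs detected there, between them for 3 and below them for 1, mocos. How all genes divided over these positions is not given here, so the counts do not set the members apart. The summed xanthophore markers moved with these levels, at 223 and 105 CPM in GFP-positive libraries at 24 hpf and at 14329.6 and 14512 CPM at 48 hpf. Cardiomyocyte markers also moved, with sums of 468 to 606 CPM at 24 hpf and 2005 to 2663 CPM at 48 hpf, as did the pigment cell markers given with the pathway genes; the part of these markers in the differences was not tested. The set as a whole made up 0.0270 to 0.0512% of all counts in the GFP-positive libraries at 24 hpf, 2.95 to 3.18% at 48 hpf and 0.852 to 2.11% in the 8 libraries at 72 hpf, against 0.00862 to 0.0463% in the GFP-negative libraries.

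The next comparison asked how the set stood at 72 hpf relative to 48 hpf in wild-type GFP-positive cells, a contrast that the choice of members did not use but that shares the 48 hpf libraries with the one that it did. Members were chosen for high levels in those 48 hpf libraries, which favours lower values at 72 hpf. The p-values, counts and median given for the members in this comparison carry that bias. atic and the QDPR gene ENSDARG00000040190 fell. atic was at 283 and 136 CPM at 72 hpf, against 1159.9 and 1231 CPM at 48 hpf, a log2 fold change of −2.49 ± 0.41 (SE, edgeR quasi-likelihood F test, adjusted p = 0.0118, n = 2 against 2). ENSDARG00000040190 was at 55.1 and 29.8 CPM at 72 hpf, against 292 and 332 CPM at 48 hpf, a log2 fold change of −2.86 ± 0.41 (edgeR, adjusted p = 0.00554, n = 2 against 2). These were 2 of the 9 gene IDs tested, where 0.227% of all 23767 genes tested were called lower. Both calls held under all 10 alternative settings, with log2 fold changes of −3.10 to −2.04 for atic and −3.35 to −2.46 for ENSDARG00000040190.

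Of the other members, 6 were lower at 72 hpf without reaching the threshold in edgeR. The log2 fold change was −1.43 ± 0.49 for gch2 (adjusted p = 0.279), −2.15 ± 0.61 for pts (adjusted p = 0.199) and −1.77 ± 0.40 for paics (adjusted p = 0.0709). For the molybdenum enzymes it was −1.47 ± 0.54 in aox5 (adjusted p = 0.317), −1.48 ± 1.24 in xdh (adjusted p = 0.687) and −1.10 ± 0.35 in mocos (adjusted p = 0.215). In all 6 of these genes both libraries at 72 hpf were below both at 48 hpf. With atic and ENSDARG00000040190 that made 8 of 9 lower without overlap, and 23.7% of all genes tested were lower in that way. ENSDARG00000037378, at 9.38 and 0 CPM at 72 hpf against 6.46 and 1.32 CPM at 48 hpf, did not separate (0.29 ± 1.82, adjusted p = 1). The median log2 fold change was −1.48 over the 9 gene IDs and 0 over all genes tested. The number called depended on the method. DESeq2 called 4 members lower, limma on the deposited log2 values 3 and edgeR without a filter on low counts 7, where these methods called 3.44%, 0.518% and 1.78% of all their genes lower. Leaving out wild-type replicate 1 at 72 hpf gave 4, where 2.56% of all genes were called lower.

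The xanthophore markers other than SCARB1 also had negative log2 fold changes, with a median of −0.68 over the 9, none called by edgeR, and summed levels of 9855 and 5599.8 CPM at 72 hpf against 14329.6 and 14512 CPM at 48 hpf. Markers of other cell types moved as well between these libraries. The cardiomyocyte sum was at 391 to 989 CPM at 72 hpf and 2005 to 2663 CPM at 48 hpf, and the median log2 fold change over its 8 gene IDs was −1.37, near that of the members. The iridophore sum was at 216 to 297 CPM at 72 hpf and 443 to 446 CPM at 48 hpf, with a median of −0.92 over 9 tested gene IDs. The melanophore sum was at 463 to 467 CPM at 72 hpf and 1164 to 1437 CPM at 48 hpf, although the median over its 11 gene IDs was 0.11. Macrophage markers had a median of 1.17 and liver markers of 4.12. The part of these lists in the members' difference was not tested.

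Dividing each of the 8 lower members by the xanthophore marker sum in the same library left a smaller difference, described here without a test. What is left depends on which markers the sum holds, since the markers did not move alike. Their log2 fold change was −1.72 in slc2a15a, −1.45 in slc2a11b and −1.32 in slc2a15b, near the −1.43 of gch2. In the remaining markers it ran from −0.73 in plin6 to 0.22 in SCARB1. gch2 was at 94.3 and 91.6% of the marker sum at 72 hpf, against 141 and 134% at 48 hpf, a log2 ratio of −0.56. For mocos the ranges overlapped, at 2.62 to 3.12% at 72 hpf and 2.80 to 4.05% at 48 hpf. For atic they stood well apart, at 2.42 to 2.87% at 72 hpf and 8.09 to 8.49% at 48 hpf, a log2 ratio of −1.65. ENSDARG00000040190 had the ratio of −1.99, with 0.533 to 0.559% at 72 hpf and 2.04 to 2.29% at 48 hpf. The log2 ratio was −1.23 for pts, −0.59 for aox5, −0.63 for xdh and −0.90 for paics, all without overlap. How many of all genes separated in this way after division is not given here.

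**Figure D2:**
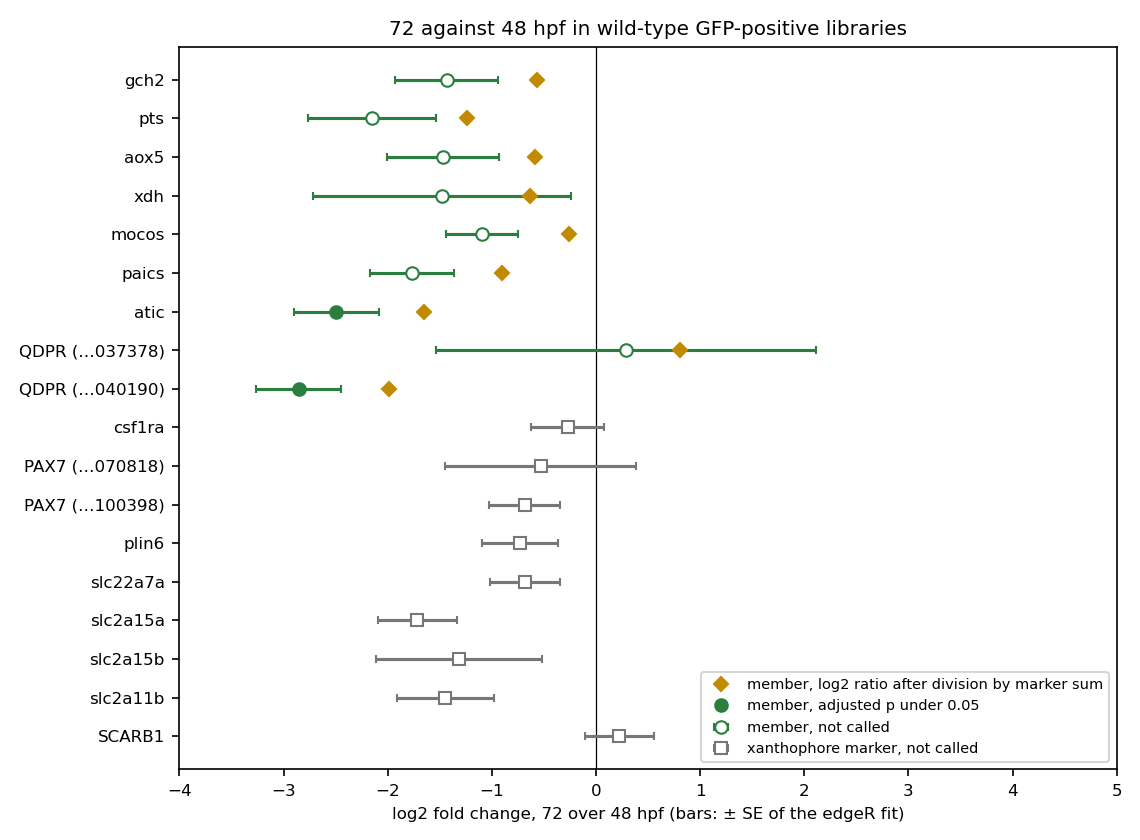
Log2 fold change, 72 over 48 hpf, in wild-type GFP-positive libraries (2 against 2) for 9 gene IDs of the set (circles) and 9 xanthophore marker gene IDs (squares), with bars of ± SE from edgeR; diamonds give the log2 ratio of each member after division by the summed marker level. atic, at −2.49, and the QDPR gene ENSDARG00000040190, at −2.86, are the filled circles, with an adjusted p under 0.05.

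At 72 hpf the set was then compared between each genetic background and wild type in GFP-positive cells. No member was called by edgeR in any of the 3 backgrounds, where 0.105% of all genes were called in gata5, 0.0463% in tbx5 and 0.0505% in hand2. At an unadjusted p under 0.05 there were 2 of 9 members in gata5, 0 in tbx5 and 0 in hand2, against 9.64% of all genes tested in gata5, 8.34% in tbx5 and 9.09% in hand2. Neither DESeq2 nor limma on the deposited log2 values called any member, where DESeq2 called 4.81% of all its genes in gata5, 3.54% in tbx5 and 3.73% in hand2. These 3 comparisons share the wild-type libraries at 72 hpf with each other and with the comparison of stages.

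gch2 was at 7584 and 19026 CPM in gata5, 7089 and 12981 CPM in tbx5 and 9828 and 12368 CPM in hand2, against 9297 and 5129 CPM in wild type. In the GFP-negative libraries it was at 11.9 CPM in gata5, 8.57 CPM in tbx5 and 6.98 CPM in hand2, against 1.71 CPM in wild type. The GFP-positive hand2 libraries did not overlap with wild type, and the gata5 and tbx5 libraries did. The log2 fold change was 0.86 ± 0.49 in gata5 (edgeR, adjusted p = 0.562), 0.47 ± 0.48 in tbx5 (adjusted p = 0.841) and 0.62 ± 0.48 in hand2 (adjusted p = 0.68).

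atic was at 303 and 615 CPM in gata5, 284 and 416 CPM in tbx5 and 291 and 309 CPM in hand2, against 283 and 136 CPM in wild type. All 6 libraries of the backgrounds were above both wild-type libraries, in the tbx5 case by less than 1 CPM at the nearest pair. The log2 fold change was 1.11 ± 0.39 in gata5 (edgeR, adjusted p = 0.379), 0.73 ± 0.39 in tbx5 (adjusted p = 0.615) and 0.52 ± 0.39 in hand2 (adjusted p = 0.658).

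aox5 stood the same way, at 2734 and 5013 CPM in gata5, 2816 and 3601 CPM in tbx5 and 3372 and 3856 CPM in hand2, against 2682 and 1497 CPM in wild type. Its log2 fold changes were 0.87 ± 0.53 in gata5, 0.61 ± 0.53 in tbx5 and 0.79 ± 0.53 in hand2, with adjusted p-values of 0.572, 0.767 and 0.623 from edgeR. pts was at 458 and 2563 CPM in gata5, 1205 and 1232 CPM in tbx5 and 1303 and 1629 CPM in hand2, against 1069.98 and 730.5 CPM in wild type. Its gata5 replicates lay on either side of wild type and those of tbx5 and hand2 were above it.

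xdh was at 539.7 and 1094 CPM in gata5, 814 and 942 CPM in tbx5 and 731 and 828 CPM in hand2, against 769 and 372 CPM in wild type. mocos was at 239 and 302 CPM in gata5, 299.5 and 338 CPM in tbx5 and 183 and 251 CPM in hand2, against 308 and 146 CPM in wild type. paics was at 733 and 1807 CPM in gata5, 843 and 1277 CPM in tbx5 and 773 and 812 CPM in hand2, against 890.2 and 475 CPM in wild type. For these 3 genes the backgrounds overlapped with wild type, except xdh in tbx5.

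ENSDARG00000040190 was at 32.2 and 54.9 CPM in gata5, 26.8 and 32.1 CPM in tbx5 and 55.2 and 56.8 CPM in hand2, against 55.1 and 29.8 CPM in wild type. Over the 9 tested gene IDs, those higher than wild type without overlap numbered 2 in gata5, 4 in tbx5 and 5 in hand2, and 0 were lower. Of all genes tested, 17.6% were higher without overlap in gata5, 20.8% in tbx5 and 27.2% in hand2. Those lower without overlap were 14.8% in gata5, 14.3% in tbx5 and 15.8% in hand2. Members had a median log2 fold change of 0.77 in gata5, 0.48 in tbx5 and 0.45 in hand2, against 0 in gata5, 0.02 in tbx5 and 0.08 in hand2 over all genes tested. The 9 xanthophore markers moved with them, with medians of 0.53 in gata5, 0.47 in tbx5 and 0.21 in hand2. Cardiomyocyte markers, 8 gene IDs, had medians of −1.78 in gata5, −1.64 in tbx5 and 1.13 in hand2, so they were on the other side of 0 from the members in gata5 and tbx5. Melanophore markers had medians of −0.79, −0.24 and −0.45 in gata5, tbx5 and hand2. Their sums were at 419 to 948 CPM in gata5, 457 to 506 CPM in tbx5 and 551 to 665 CPM in hand2. In wild type the melanophore sum was at 463 to 467 CPM. Medians in gata5, tbx5 and hand2 were −0.42, 0.19 and 1.29 for iridophore markers and −0.26, 0.50 and 1.11 for macrophage markers. For liver markers they were −2.27, 1.15 and −0.84. The part of these lists in the members' values was not tested.

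**Figure D3:**
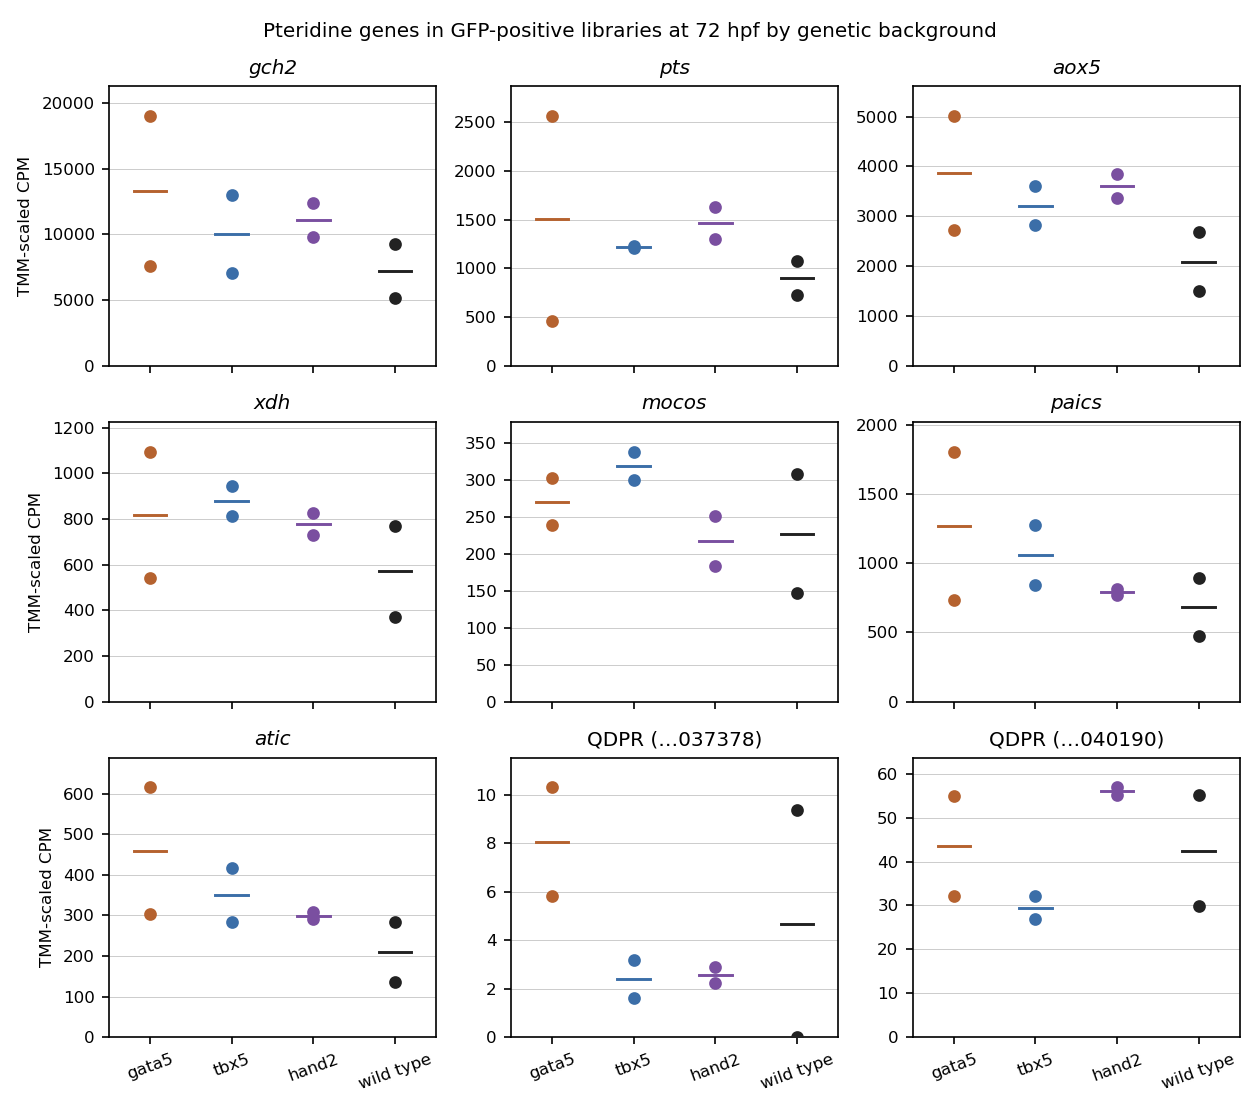
TMM-scaled CPM of 9 gene IDs of the set in GFP-positive libraries at 72 hpf (linear axes from 0) for the gata5, tbx5 and hand2 backgrounds and wild type; each point is a library, 2 per group, and bars mark the mean. The 2 replicates of a group differ widely in gata5, as in gch2 at 7584 and 19026 CPM.

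Members differed between the replicates of most groups in 1 direction. In wild type at 72 hpf all 9 gene IDs were higher in replicate 1 than in replicate 2, with a median log2 ratio of 0.90, and at 24 hpf all 9 were, with a median of 0.90, while at 48 hpf 4 of 9 were. In gata5, tbx5 and hand2, 1 of 9 was higher in replicate 1, and the median log2 ratio was −1.02 in gata5, −0.25 in tbx5 and −0.18 in hand2. Over all genes tested, 44.5 to 49.7% were higher in replicate 1 in these groups and the median was 0. The xanthophore marker sum went the same way, at 8418 and 15689.7 CPM in gata5 replicates 1 and 2, 9797 and 13163 CPM in tbx5, 8446 and 10134 CPM in hand2 and 9855 and 5599.8 CPM in wild type.

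After division by that sum, 2 of 9 gene IDs were higher than wild type without overlap in gata5, 2 in tbx5 and 6 in hand2. In each background 1 was lower without overlap, and 6 overlapped in gata5, 6 in tbx5 and 2 in hand2. Over the 9, the median log2 ratio was 0.18 in gata5, −0.03 in tbx5 and 0.22 in hand2. aox5 stood at 32.0 to 32.5% in gata5, 27.4 to 28.7% in tbx5 and 38.1 to 39.9% in hand2, against 26.7 to 27.2% in wild type. atic stood at 3.60 to 3.92% in gata5, 2.89 to 3.16% in tbx5 and 3.05 to 3.44% in hand2, against 2.42 to 2.87% in wild type. These 2 were above wild type in all 3 backgrounds, by a log2 ratio of 0.06 to 0.53 for aox5 and 0.19 to 0.51 for atic. Other members went either way: gch2 was at 0.18 in gata5, −0.12 in tbx5 and 0.36 in hand2, and pts at −0.13 in gata5, −0.14 in tbx5 and 0.40 in hand2. For xdh the log2 ratio was −0.11 in gata5, 0.10 in tbx5 and 0.22 in hand2, and for paics it was 0.21 in gata5, 0.06 in tbx5 and −0.03 in hand2. ENSDARG00000040190 was the reverse in 2 of them, at 0.350 to 0.382% in gata5 and 0.244 to 0.274% in tbx5, against 0.533 to 0.559% in wild type. mocos was lower in hand2, at 2.17 to 2.48% against 2.62 to 3.12% in wild type. These ratios and counts are descriptions without a test. How many of all genes separated after the same division is not given here, so the counts do not set the members apart. Before division, 17.6 to 27.2% of all genes tested were higher without overlap in the 3 backgrounds, and 14.3 to 15.8% were lower.

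The levels of some members followed that of gch2 closely over the 10 GFP-positive libraries at 48 and 72 hpf. Likeness was measured as the SD of the log2 ratio of a gene to gch2 over those libraries, where 0 would be a fixed ratio. The SD was 0.199 for aox5, 0.263 for xdh and 0.275 for paics, and 0.433 for mocos, 0.450 for atic, 0.534 for pts and 0.890 for ENSDARG00000040190. The median was 0.786 over the 9399 genes compared, and gch2 itself had an SD of 0.677 on the log2 scale. The genes outside the set most like gch2 were PIK3C3 (0.198), the sugar transporter genes slc2a15b (0.202) and slc2a15a (0.212), PFAS (0.215), ALDH2 (0.216), cbr1l (0.219), cax1 (0.227), GPHN ENSDARG00000089076 (0.233), AKR1B1 (0.235) and ARPC1A (0.237). slc2a15a and slc2a15b belong to the xanthophore marker list, and PFAS and GPHN to the pathway lists that follow. The rest of the xanthophore markers were less like gch2, from 0.272 in slc2a11b to 0.642 in csf1ra and 0.695 in SCARB1. The libraries share their sort and their marker content, so the values describe these 10 libraries.

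Enzymes that feed the route or share its cofactors were taken as 7 lists, 57 gene IDs in all. The lists, like the members, were chosen with earlier results of these data known. The counts and p-values given for them may not be independent of that choice. Between GFP-positive and GFP-negative libraries, 20 of the 55 tested were higher and 2 lower, where 12.4% of all 21729 genes tested were called higher and 16.9% lower. The median log2 fold change was 0.56 over the 55, against −0.26 over all genes tested. The call rested on all 18 libraries, since the 9 wild-type libraries alone gave 2 calls, both higher, where 1.5% of all genes were called higher in that fit.

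De novo purine synthesis had 4 of 5 gene IDs higher. PFAS, an enzyme of its middle steps, averaged 729.5 CPM in GFP-positive and 23.8 CPM in GFP-negative libraries (log2 fold change 5.02 ± 1.08, edgeR, adjusted p = 0.0036). PPAT, which commits the route, averaged 119 CPM in GFP-positive and 9.94 CPM in GFP-negative libraries (3.57 ± 0.87, adjusted p = 0.00716). GART (2.99 ± 0.65) and ADSL (2.06 ± 0.42) rose with adjusted p-values of 0.0033 and 0.00163. In GTP supply 2 of 6 were higher, GMPS (3.16 ± 0.56, adjusted p = 0.000797) and IMPDH1 ENSDARG00000029524 (3.68 ± 0.80, adjusted p = 0.00363), the enzymes that turn inosine monophosphate towards guanine nucleotides. The other IMPDH1 gene ID, ENSDARG00000042336, averaged 2.61 CPM in GFP-positive and 4.13 CPM in GFP-negative libraries and was not called (adjusted p = 0.201). These averages pool all stages. At 24 hpf no called gene of these lists, or of tetrahydrobiopterin synthesis below, had both GFP-positive libraries above the GFP-negative one. PFAS, for example, was there at 71.6 and 53.2 CPM in GFP-positive and 77.6 CPM in GFP-negative cells.

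Tetrahydrobiopterin synthesis and recycling had 3 of 6 higher. GCH1, the paralog of gch2, averaged 96.1 CPM in GFP-positive and 9.53 CPM in GFP-negative libraries (2.69 ± 0.52, edgeR, adjusted p = 0.00126). PCBD1, a recycling enzyme, averaged 68.8 CPM in GFP-positive and 4.80 CPM in GFP-negative libraries (3.12 ± 0.63, adjusted p = 0.00196). SPR, sepiapterin reductase, has 2 gene IDs here. ENSDARG00000058553 averaged 131 CPM in GFP-positive and 1.01 CPM in GFP-negative libraries (6.53 ± 2.15, adjusted p = 0.0366), and ENSDARG00000004406, at 7.397 CPM in GFP-positive and 8.39 CPM in GFP-negative libraries, was not called (adjusted p = 0.774).

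Of the molybdenum list 2 of 8 were higher and 1 lower. MOCS1, which starts synthesis of the cofactor, rose (4.45 ± 1.13, edgeR, adjusted p = 0.00992). At 24 hpf MOCS1 was at 13.1 and 4.66 CPM in GFP-positive and 14.8 CPM in GFP-negative cells. The next gene, GPHN ENSDARG00000089076, was there at 22.6 and 22.8 CPM in GFP-positive and 19.5 CPM in GFP-negative cells. GPHN ENSDARG00000089076 rose (2.61 ± 0.43, adjusted p = 0.000362), and its second gene ID ENSDARG00000100851, at 1.96 CPM in GFP-positive and 12.4 CPM in GFP-negative libraries, fell by 3.27 on the log2 scale (SE 0.90, adjusted p = 0.0116). aox6, a relative of aox5, was not called, at 10.4 CPM in GFP-positive and 6.86 CPM in GFP-negative libraries (0.78 ± 0.43, adjusted p = 0.191). Of the 9 tested enzymes that use tetrahydrobiopterin, AGMO rose (4.27 ± 0.74, adjusted p = 0.000667) and TH, the tyrosine hydroxylase of catecholamine neurons, fell (−7.71 ± 1.44, adjusted p = 0.000737). Folate one-carbon supply had 4 of 11 higher, among them MTHFD1 ENSDARG00000040492 (3.59 ± 0.86) and ALDH1L1 (3.56 ± 0.34). Purine salvage and breakdown had 4 of 10 higher, led by uraha, an enzyme of urate breakdown, at 156 CPM in GFP-positive and 0.231 CPM in GFP-negative libraries (8.90 ± 1.71, adjusted p = 0.00184).

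Beside these counts, the fractions also differed in markers of other cell types. The 11 melanophore gene IDs summed to 24.996 to 1437 CPM in the 12 GFP-positive libraries and 19.1 to 325 CPM in the 6 GFP-negative ones, with none at 0 throughout either fraction. The 10 iridophore gene IDs summed to 106 to 512 CPM in GFP-positive and 39.6 to 92.2 CPM in GFP-negative libraries, with 1 EDNRB gene ID at 0 in all GFP-negative libraries. The 12 macrophage gene IDs summed to 168 to 2570.3 CPM in GFP-positive and 47.3 to 128 CPM in GFP-negative libraries, and 5 liver gene IDs to 22.1 to 2907 CPM in GFP-positive and 1.80 to 211 CPM in GFP-negative libraries. Their part in the pathway counts was not tested.

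**Figure D4:**
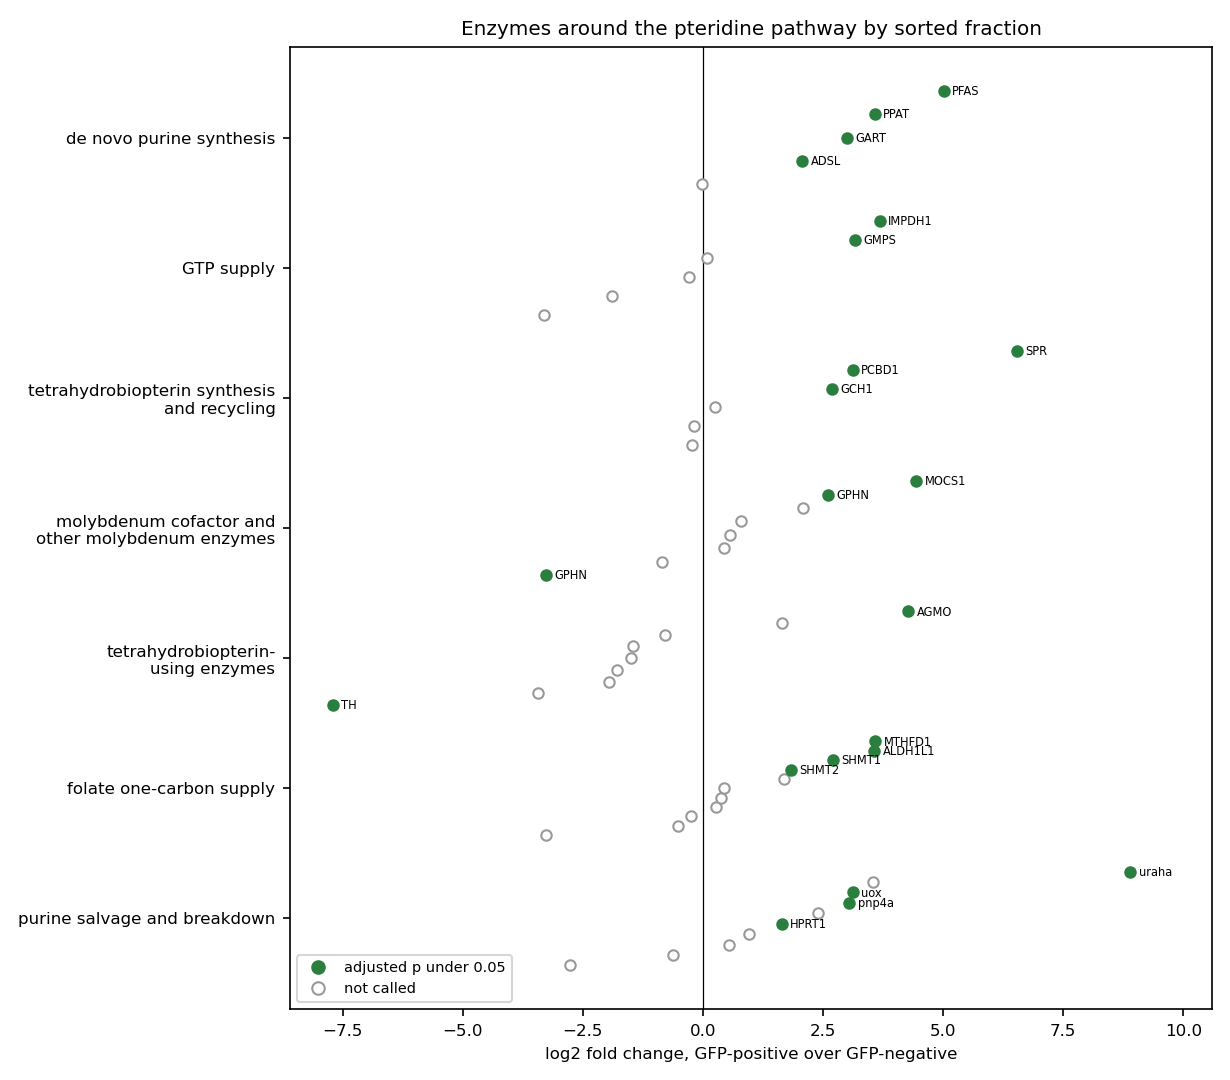
Log2 fold change, GFP-positive over GFP-negative, of the 55 tested gene IDs of 7 lists around the pteridine route (1 row per list, 1 point per gene ID, 12 against 6 libraries). Filled points, with their symbols, have an adjusted p under 0.05 in edgeR: 20 lie to the right of 0 and 2, GPHN and TH, to the left.

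In GFP-positive cells at 48 against 24 hpf, 20 of the 57 gene IDs rose and 4 fell, where 9.06% of all genes tested were called higher and 4.29% lower. Here too, the lists were chosen with earlier results of these data known. GCH1 averaged 230.3 CPM at 48 hpf and 6.82 CPM at 24 hpf (5.04 ± 0.39, edgeR, adjusted p = 1.47e-06). PCBD1 averaged 158 CPM at 48 hpf and 2.35 CPM at 24 hpf (6.03 ± 0.43, adjusted p = 8.21e-07). SPR ENSDARG00000058553 had 10691 counts over the 48 hpf libraries and 6 over the 24 hpf libraries (10.69 ± 0.93, adjusted p = 2.77e-05).

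On the purine side, PFAS (4.39 ± 0.39), PPAT (3.36 ± 0.59), GART (2.42 ± 0.48) and ADSL (2.17 ± 0.39) rose, as did IMPDH1 ENSDARG00000029524 (4.34 ± 0.56) and GMPS (2.96 ± 0.39). Their adjusted p-values in edgeR ran from 4.63e-06 in PFAS to 0.00348 in GART. IMPDH2, the other isozyme of that step, fell, at 15.0 CPM at 48 hpf against 65.0 CPM at 24 hpf (−2.16 ± 0.41, adjusted p = 0.00212). ALDH1L2 (−3.00 ± 0.63), SUOX (−2.32 ± 0.70) and TYMS (−2.12 ± 0.48) were the other 3 that fell. uraha rose to 310.4 CPM at 48 hpf, against 1.27 CPM at 24 hpf (7.97 ± 1.60, adjusted p = 0.0147). uox, urate oxidase, was called as well, with 18 counts at 48 hpf and 0 at 24 hpf. Pooled by stage, it was at least 6.12-fold higher when set against a floor of 3 counts over the 24 hpf libraries. Most of the 18 counts came from a single 48 hpf library. The other 48 hpf library held fewer than 3 counts, so it showed no detectable rise by itself. aox6 was not called, at 5.62 CPM at 48 hpf and 5.49 CPM at 24 hpf. Melanophore markers summed to 1164 to 1437 CPM at 48 hpf and 24.996 to 55.5 CPM at 24 hpf. Most of their sum at 48 hpf was TYR, at a mean of 940 CPM. Iridophore markers summed to 443 to 446 CPM at 48 hpf and 106 to 156 CPM at 24 hpf. Liver markers summed to 109.7 to 123 CPM at 48 hpf and 22.1 to 29.1 CPM at 24 hpf. Cardiomyocyte markers summed to 2005 to 2663 CPM at 48 hpf and 468 to 606 CPM at 24 hpf. Macrophage markers overlapped, at 168 to 704 CPM at 48 hpf and 220 to 377 CPM at 24 hpf. The part of these markers in the counts was not tested.

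At 72 against 48 hpf, 1 of the 57 rose, where 0.261% of all genes tested were called higher, and 1 fell. uox was at 34.9 to 38.6 CPM at 72 hpf, against 0.142 to 0.883 CPM at 48 hpf (6.12 ± 0.77, edgeR, adjusted p = 0.00238). Liver markers were at 1100.1 to 1334 CPM at 72 hpf and 109.7 to 123 CPM at 48 hpf in the same libraries, and their part in this was not tested. pnp4a, a purine nucleoside phosphorylase known from iridophores, was at 16.3 to 21.3 CPM at 72 hpf, against 86.1 to 116 CPM at 48 hpf (−2.40 ± 0.48, adjusted p = 0.043). The iridophore sum, which includes pnp4a, was at 216 to 297 CPM at 72 hpf and 443 to 446 CPM at 48 hpf.

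The median log2 fold change was −0.86 over the 57 and 0.21 over GTP supply, against 0 over all genes tested, and 19 of the 57 were positive. IMPDH2 was at 30.1 and 33.1 CPM at 72 hpf, against 17.4 and 12.5 CPM at 48 hpf. IMPDH1 ENSDARG00000042336 was at 5.20 and 0.19 CPM, against 0.57 and 1.27 CPM. The genes named next are some of those that were lower at 72 hpf without being called. The log2 fold change was −1.43 ± 0.34 for GCH1 (edgeR, adjusted p = 0.0824), −1.29 ± 0.35 for PCBD1 (adjusted p = 0.133) and −1.56 ± 0.58 for SPR ENSDARG00000058553 (adjusted p = 0.338). For the purine genes it was −1.76 ± 0.37 in GMPS (adjusted p = 0.0575), −1.78 ± 0.38 in ADSL (adjusted p = 0.0629), −1.44 ± 0.35 in PFAS (adjusted p = 0.0885), −2.07 ± 0.51 in IMPDH1 ENSDARG00000029524 (adjusted p = 0.114), −1.70 ± 0.55 in PPAT (adjusted p = 0.257) and −1.20 ± 0.46 in GART (adjusted p = 0.33). The count of calls depended on the method, since DESeq2 called 14 of the 57, limma 6 and edgeR without a filter on low counts 17, where they called 6.35%, 1.44% and 3.74% of all their genes in either direction. In gata5, tbx5 and hand2 against wild type edgeR called 0 of the 57, with 8 in gata5, 5 in tbx5 and 4 in hand2 at an unadjusted p under 0.05, a threshold that 9.64% of all genes passed in gata5, 8.34% in tbx5 and 9.09% in hand2. DESeq2 called 1 of the 57 in tbx5 and 0 in gata5 and hand2.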

How the data were processed

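For each library the authors deposited raw, unscaled read counts by Ensembl gene. A second deposited table gives log2 values from the regularized-log transform. The submitters' processing notes name DESeq2, Trimmomatic 0.36, STAR 2.5, SAMtools 1.4 and the GRCz10 build. Libraries were made with a SMARTer low-input kit per the labels' protocols. How reads were counted, with which annotation and whether by strand, is not given in the sources used here, so paralogs (gch2 and GCH1, the QDPR, SPR, IMPDH1 and GPHN gene IDs) may share reads.

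The quasi-likelihood F test of edgeR 4.0.16 (R 4.3.3) was run on the counts (TMM scaling, filterByExpr with minimum count 10 and minimum total 15, robust fit, two-sided, Benjamini-Hochberg adjustment over all genes tested, called at an adjusted p under 0.05). The fractions were compared within condition over 18 libraries, and stages and backgrounds over the 12 GFP-positive libraries as 6 groups. DESeq2 1.42.0, limma 3.58.1 on the deposited log2 values, other scalings and filters and left-out libraries were alternatives. Scripts were tested on simulated counts. A value of 0 is read against a floor of 3 counts, which covers counting error only.

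Symbols came from a table that names 24555 of 28298 gene IDs, and 6 pathway names did not match. Besides the members, the text names the 5 called pathway genes with the largest change in each direction, 10 fixed pathway genes and the 10 genes most like gch2 among those with a median of at least 10 CPM. One gene that this rule selects at 48 against 24 hpf is not reported here. GPHN ENSDARG00000089076, MTHFD1 and ALDH1L1 in the comparison of fractions were picked after their values were seen. Members and lists were chosen with earlier results of these data known. Sequences and promoters were not used here.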

Additional observations from a re-analysis of the deposited data

Results flagged for a closer look

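Between 48 and 72 hpf, 6 members went in opposite directions in the sorted fractions of wild type. In all 6, both GFP-positive libraries at 72 hpf were below both at 48 hpf, while the single GFP-negative library was higher at 72 hpf than at 48 hpf. With 1 GFP-negative library a stage, and with members chosen for their difference between the fractions, this difference was not tested. The share of all genes that went in opposite directions is not given here.

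The QDPR gene ENSDARG00000040190 had the largest gap of the 6. In GFP-positive libraries it was at 55.1 and 29.8 CPM at 72 hpf, against 292 and 332 CPM at 48 hpf, and in the GFP-negative libraries at 29.98 CPM (228 counts) at 72 hpf, against 1.47 CPM (16 counts) at 48 hpf. Its log2 ratio of mean levels, 72 over 48 hpf, was −7.23 in GFP-positive minus GFP-negative cells. That difference was −3.73 for pts, −3.40 for xdh, −2.63 for atic, −2.06 for paics and −1.61 for aox5. In the GFP-negative cells alone, the log2 ratio was 4.35 for ENSDARG00000040190, 1.90 for xdh and 1.56 for pts. It was 0.27 for paics, 0.13 for aox5 and 0.11 for atic. xdh rested on 34 counts at 72 hpf and 13 at 48 hpf, and pts on 66 and 32. aox5 had 29 and 38 counts, paics 358 and 424 and atic 130 and 172, so these rose only after scaling. In the GFP-negative gata5, tbx5 and hand2 libraries, pts and ENSDARG00000040190 were also above the wild-type level at 48 hpf. xdh, aox5, paics and atic lay on either side of it.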

How the results depend on the processing

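The calls of atic and ENSDARG00000040190 at 72 against 48 hpf held under all 10 alternatives, while paics was called under 5, with an adjusted p between 0.000455 and 0.231. With 2 calls among members at these stages in the reported fit, DESeq2 gave 4, edgeR without a low count filter 7, and leaving out 1 library each 2 to 4, the 4 without wild-type replicate 1 at 72 hpf. The 2 pathway calls at these stages became 14 with DESeq2, 17 without the filter, 6 with limma, 6 with all libraries as 12 groups, 1 with RLE size factors and 1 to 6 with 1 library left out, with 6 reached without wild-type replicate 1 at 72 hpf and 1 without replicate 2 of 72 hpf or either replicate of 48 hpf. In the fit of the fractions, 22 calls became 2 with the 9 wild-type libraries alone. Against 0 pathway calls in each background, the unfiltered fit gave 3 in gata5 and 1 in hand2, DESeq2 gave 1 in tbx5, and leaving out 1 library gave 0 to 1 in gata5. For these counts the cause was not tested. Every alternative at 72 against 48 hpf used 48 hpf libraries, whose high levels the choice of members rests on. The alternatives share the bias stated for that comparison, so their accord on the member calls does not remove it. In the fits with RLE size factors and with 12 groups, the share of all genes called is not given here. That share is also missing for the backgrounds without the filter and for most fits with 1 library left out. The log2 ratio of ENSDARG00000037378 at 48 against 24 hpf, −0.23, ranged from −1.79 to 1.36 with 1 library left out, turning positive without 24 hpf replicate 1 (1.36) or 48 hpf replicate 2 (0.50).

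Deviations of same-numbered replicates from their group means correlated at −0.05 to 0.04 over 15 pairs of groups. The reported fit therefore did not pair libraries by replicate number. Whether same-numbered libraries shared a batch was not tested. The fit with the replicate number as a block gave 2 member calls and 1 pathway call at 72 against 48 hpf, 21 pathway calls between the fractions and 20 at 48 against 24 hpf. The share of all genes called in the block fit is not given here. For ENSDARG00000086859 a difference was not detectable at this depth. ENSDARG00000037378 was low and uneven between replicates, at 202 and 0 counts in the wild-type GFP-positive libraries at 72 hpf.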

Other observations

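The members were also present in the GFP-negative library at 24 hpf and lower in that of 48 hpf, in 9 of the 9 gene IDs tested between the fractions, where 46.4% of those 21729 genes were lower. gch2 had 12.8 CPM at 48 hpf against 92.5 CPM at 24 hpf, and aox5 3.49 CPM at 48 hpf against 61.2 CPM at 24 hpf. In the same 2 libraries the summed xanthophore markers were at 146 CPM at 48 hpf and 249 CPM at 24 hpf, and the summed melanophore markers at 37.2 CPM at 48 hpf and 325 CPM at 24 hpf. The members were chosen for a low GFP-negative level relative to GFP-positive cells, and the 48 hpf library is among those levels. The choice itself therefore favours a low value at 48 hpf, and the count of 9 is a description only. With 1 library a stage there was no test.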
